A study of Mus musculus with 16 samples.

Results

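Glucose uptake and glycolysis were followed through 10 genes with isoforms that are known to switch in cardiac hypertrophy, chosen by name: the glucose transporters Slc2a1 and Slc2a4, the hexokinases Hk1 and Hk2, the phosphofructokinases Pfkm and Pfkp, aldolase A (Aldoa), pyruvate kinase M (Pkm) and the lactate dehydrogenases Ldha and Ldhb. They make up 10 of the 55573 genes in the count table, and all 10 passed the filter on low counts that left 19955 genes for testing. A second Ensembl entry also carries the symbol Aldoa and lay between 0.0199 and 0.337 CPM (counts scaled to equal library size) in every heart, so that Aldoa below means the other entry, ENSMUSG00000030695. The study deleted Trbp (gene symbol Tarbp2), a double-stranded RNA binding protein that works with Dicer in microRNA processing, from mouse cardiomyocytes and asked how such hearts respond to transverse aortic constriction (TAC), a narrowing of the aorta that overloads the left ventricle with pressure. All 16 mice were males that carried both Trbp-Flox/Flox and aMHC-MerCreMer, a tamoxifen-inducible Cre recombinase driven by the alpha myosin heavy chain promoter, which is active in cardiomyocytes. From 4 weeks of age they received, once a day for 5 days, either tamoxifen at 30 mg/kg, which gave the Trbp-cKO groups, or corn oil alone, which gave the control groups, so that Trbp deletion and tamoxifen itself cannot be told apart in these groups. Each treatment was then split into sham surgery and TAC, with 4 mice in each of the groups control sham, control TAC, Trbp-cKO sham and Trbp-cKO TAC. RNA was taken from the ventricles about 8 weeks after surgery, at about 16 weeks of age.

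Glucose enters the cardiomyocyte by facilitated diffusion, through GLUT1 (Slc2a1), which sits at the cell surface at rest, and GLUT4 (Slc2a4), which moves to the surface on insulin signalling or contraction. Hexokinase traps the sugar as glucose 6-phosphate, phosphofructokinase makes the committed step, aldolase splits the sugar, pyruvate kinase forms pyruvate and ATP, and lactate dehydrogenase interconverts pyruvate and lactate. The adult heart draws mostly on fatty acids, whereas the fetal and the pressure-overloaded heart are known for a larger share of glucose use and for a return towards fetal isoforms such as GLUT1 and hexokinase 1.

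The total count per heart ranged from 45166994 to 68274222. Tarbp2 was at 9.53 ± 1.31 CPM with Trbp-cKO sham and 8.62 ± 1.10 with Trbp-cKO TAC, against 32.2 ± 1.15 with control sham and 27.0 ± 4.74 with control TAC (SD, n = 4), low in the groups labelled as deleted. The ventricles held all 8 cardiomyocyte markers looked for, but 3 hearts stood apart: the summed markers came to 41.2% and 32.4% of the control sham mean in control TAC replicates 1 and 2 and to 55.6% in Trbp-cKO TAC replicate 4, against 76.1% to 105% in the other hearts. Mitochondrial transcripts took 38.2% and 38.8% of the counts in control TAC replicates 1 and 2, and 18.2% to 26.3% elsewhere. In ventricle RNA, fewer cardiomyocytes and less of an RNA per cardiomyocyte cannot be told apart. In the TAC hearts outside these 3, 5 or 6 of the 8 markers also lay below all control sham hearts. In the Trbp-cKO sham hearts 1 to 7 did, with 7 in replicate 3. Values per marker sum below therefore move with the markers as well as with the gene. A score of circadian clock genes was taken as positive minus negative arm. It lay between 1.05 and 2.87 in control sham and between -2.19 and -1.65 in Trbp-cKO sham, so that clock phase and genotype moved together in the sham hearts. In control TAC the score lay between -0.92 and 0.21. In Trbp-cKO TAC it was -1.10 and -1.13 in replicates 1 and 2 but 2.38 and 1.27 in replicates 3 and 4. Neither TAC group overlapped its sham group, so that clock phase moved with surgery too. The part of clock phase, genotype or surgery in the values below was not tested beyond the fit that includes the score.

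Slc2a1, Hk1 and Pfkp were higher in Trbp-cKO TAC hearts than in any other group, while Slc2a4, Hk2, Pfkm, Aldoa, Ldha and Ldhb had their 3 lowest values in the 3 hearts low in cardiomyocyte markers, and Hk1 and Pkm had their lowest 2 in control TAC replicates 1 and 2. Below, the difference between the TAC groups and that between the sham groups are Trbp-cKO relative to control, and a change after TAC is TAC relative to sham within control or within Trbp-cKO hearts. A gene rose, fell or changed where edgeR's quasi-likelihood test gave an adjusted p of at most 0.05 over all genes tested. That test takes the spread of a gene from the hearts of all groups. The SE and p between the sham groups therefore also carry the spread within the TAC groups. Between the TAC groups 3 of the 10 genes rose (Slc2a1, Hk1 and Pfkp) and none fell, where 3.88% of all genes tested rose and 5.53% changed in either direction. These 3 also rose after TAC in Trbp-cKO hearts, beside 6.02% of all genes that rose and 9.94% that changed. Of the 10, 1 rose after TAC in control hearts, Pfkp, beside 4.09% of all genes that rose and 6.29% that changed. Of the 10, edgeR's quasi-likelihood test called 0 between the sham groups, beside 1.68% of all genes, 1.02% of them higher. There 1 gene, Pfkp, had an unadjusted p under 0.05, beside 13.7% of all genes, and DESeq2 and edgeR's exact test each called it, beside 4.62% and 8.21% of all genes. A fit of the sham groups alone called it too, beside 6.25% of all genes. The interaction, which asks whether the response to TAC differed between Trbp-cKO and control hearts, was called for Slc2a1 alone, beside 0.591% of all genes with a higher and 1.05% with any different response. With a log2 fold change of at least 0.8 in size required as well, the calls were Slc2a1 and Hk1 between the TAC groups (2.46% of all genes), Slc2a1 and Pfkp after TAC in Trbp-cKO hearts (5.57%) and Slc2a1 for the interaction (0.872%), with 0 after TAC in control hearts (3.75%) and 0 between the sham groups (0.967%). These comparisons share groups of hearts with each other, and each is given with its own values.

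**Figure D1:**
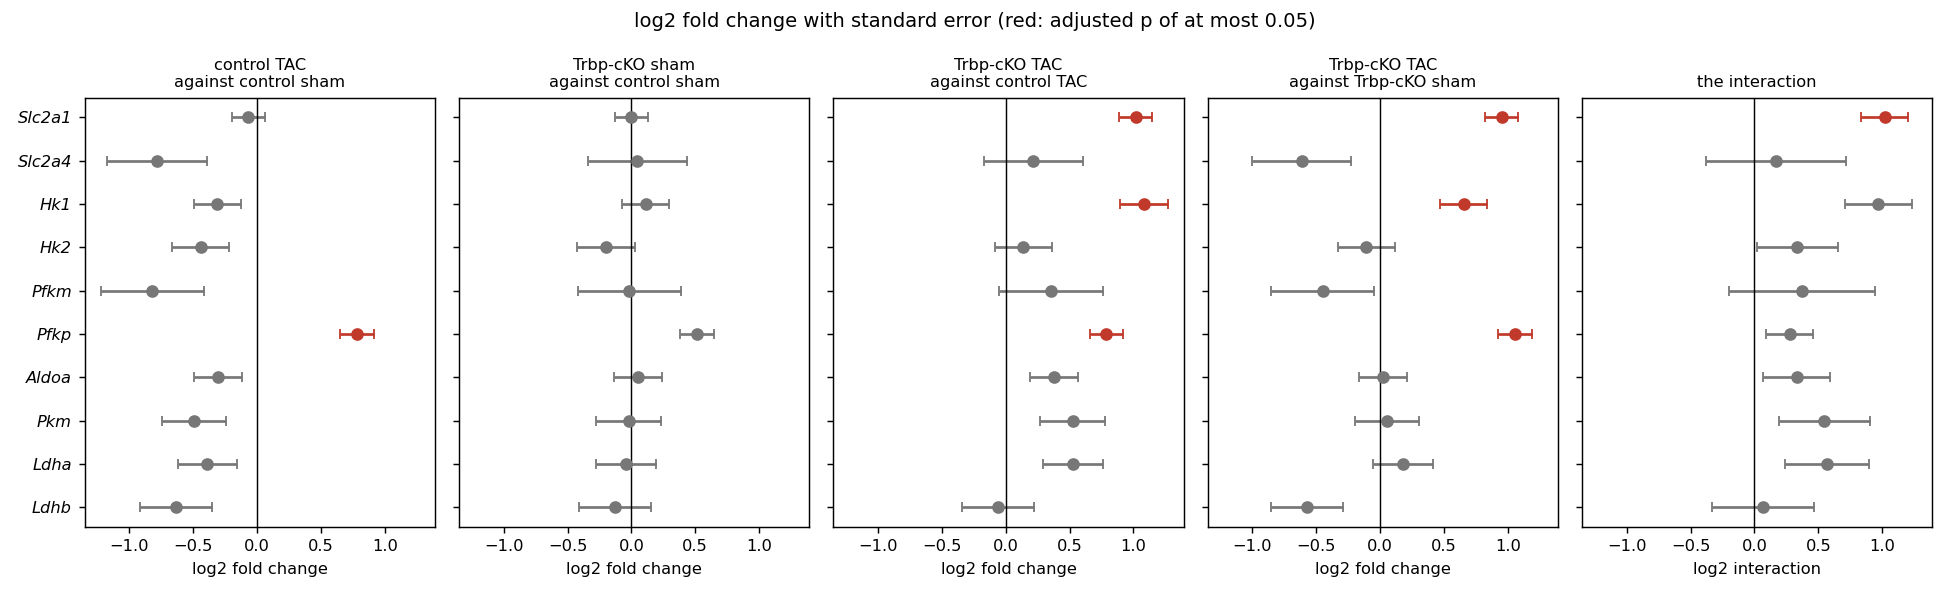
log2 fold change (points) with its standard error (bars) from edgeR for each of the 10 genes in the 4 comparisons and the interaction, with 4 hearts per group and red points where the adjusted p is at most 0.05. Slc2a1, Hk1 and Pfkp are red between the TAC groups and after TAC in Trbp-cKO hearts, with values from 0.66 to 1.08.

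The median log2 fold change of the 10 genes was -0.42 after TAC in control hearts, -0.01 between the sham groups, 0.45 between the TAC groups and 0.04 after TAC in Trbp-cKO hearts, beside medians of 0.02, 0.01, -0.01 and 0.00 over all genes tested. Of the 10, 9 lay below 0 after TAC in control hearts and 9 lay above 0 between the TAC groups, and both comparisons hold the low control TAC replicates 1 and 2. With the 3 low hearts left out, an alternative chosen after seeing the data, Pfkp remained the single call after TAC in control hearts and Slc2a1, Hk1 and Pfkp remained the calls between the TAC groups. Without them Pfkp was also called between the sham groups, and after TAC in Trbp-cKO hearts the 3 risen genes were joined by Slc2a4 and Ldhb, which fell. In that setting the share of all genes called was 2.58% after TAC in control hearts, 5.98% between the TAC groups, 8.21% between the sham groups and 17.1% after TAC in Trbp-cKO hearts.

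**Figure D2:**
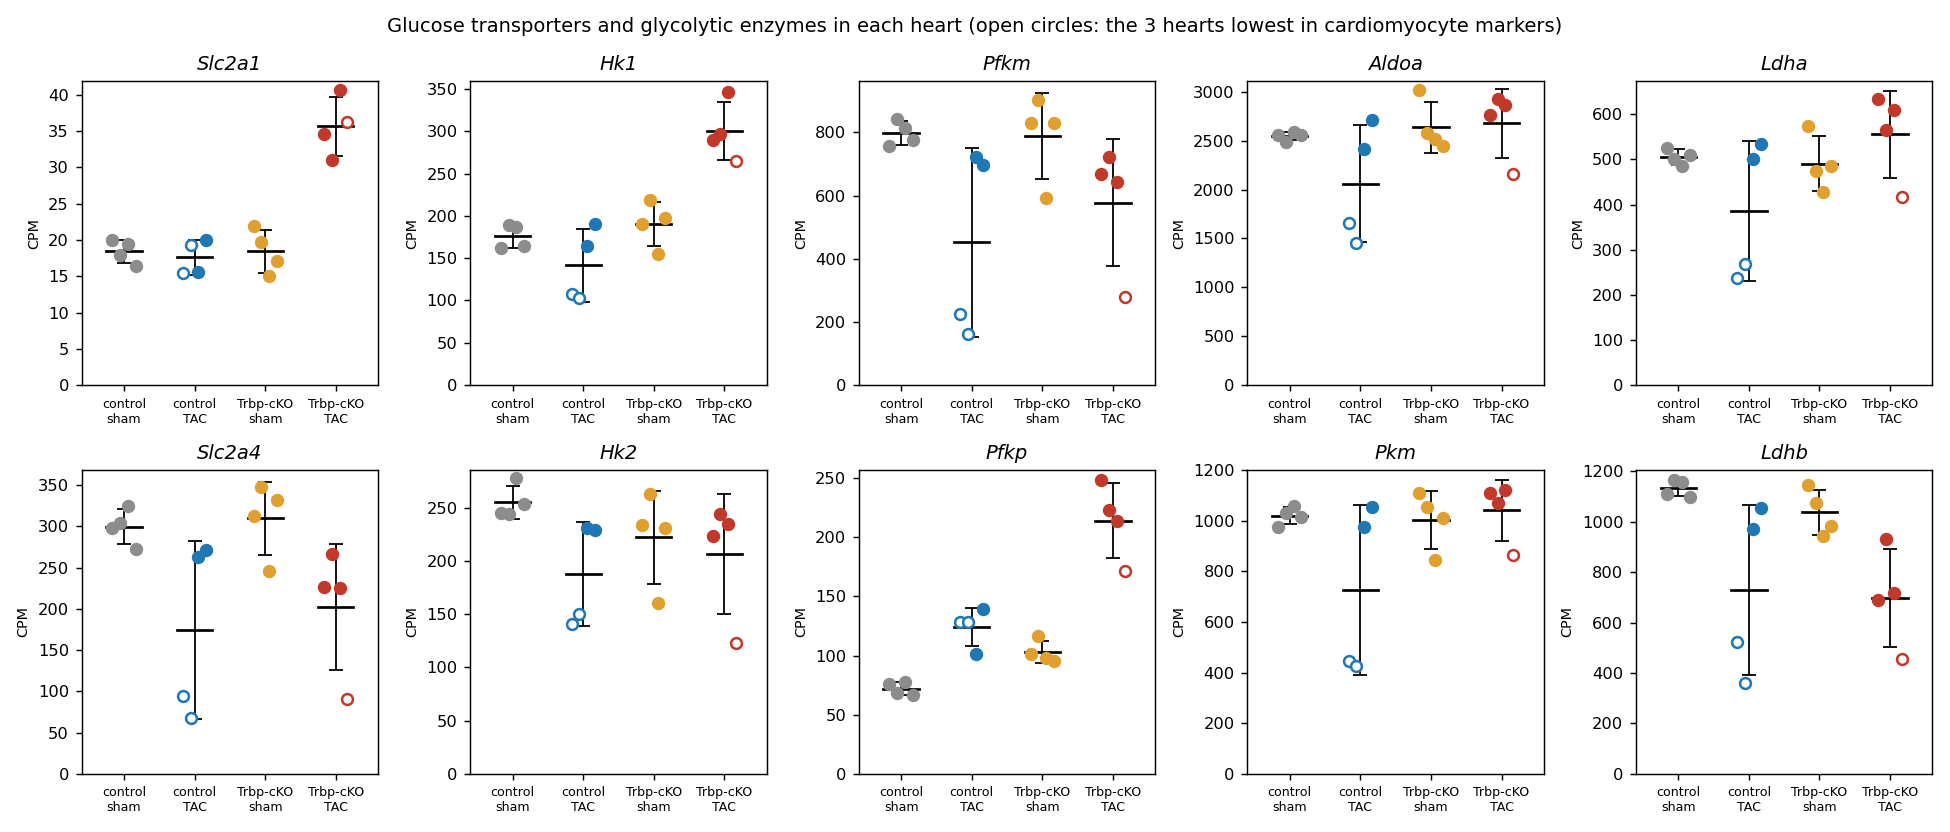
CPM of each of the 10 genes in every heart (1 circle per heart), by group, with the group mean and SD as the horizontal line and bars, on axes that start at 0. Open circles are control TAC replicates 1 and 2 and Trbp-cKO TAC replicate 4, which lie at the bottom of their groups for Slc2a4, Pfkm and Ldhb.

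Levels between genes were compared as CPM per kilobase of exons. In control sham Aldoa stood highest at 875 ± 14.4 CPM per kilobase (SD, n = 4), followed by Ldhb at 722 ± 20.9, Pfkm at 239 ± 11.2, Pkm at 204 ± 6.92, Ldha at 153 ± 5.09, Slc2a4 at 86.2 ± 6.12, Hk2 at 42.7 ± 2.63 and Hk1 at 20.6 ± 1.69. Pfkp at 5.38 ± 0.399 and Slc2a1 at 5.26 ± 0.453 closed the order, and these were the only neighbours whose hearts overlapped in that group. Among Trbp-cKO TAC hearts Hk1 (35.1 ± 4.02 CPM per kilobase) stood level with Hk2 (34.6 ± 9.47), and their hearts overlapped. Pfkp (15.98 ± 2.38) and Slc2a1 (10.2 ± 1.14) remained the lowest 2 there, with no overlap between them. The order depends on the length used. With the longest transcript of each gene as its length, tried once the values were known, the control sham hearts gave Pkm at 420 ± 14.2, Ldha at 279 ± 9.28 and Pfkm at 277 ± 13.04 CPM per kilobase, so that Pfkm moved from rank 3 to rank 5 and overlapped Ldha, and Pfkp (8.31 ± 0.616) no longer overlapped Slc2a1 (5.66 ± 0.488). On that length Hk1 stood above Hk2 in Trbp-cKO TAC, at 70.1 ± 8.02 and 37.4 ± 10.3 CPM per kilobase.

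Shown are the promoters of the 3 genes that rose both between the TAC groups and after TAC in Trbp-cKO hearts. Of these 3, only Pfkp also rose after TAC in control hearts. They come from RefSeq on GRCm38.p6 and run from 250 bases before to 50 bases after the start site, 5′ to 3′ on the gene's strand. Capitals mark each ACGTG on either strand, the core of the sequence bound by the hypoxia-inducible factors, which also lies inside the E-box CACGTG, so that a CACGTG counts on both strands. The Slc2a1 window is chr4:119108495-119108794 on the plus strand. Hk1 has 2 annotated windows on the minus strand, chr10:62379859-62380158 and chr10:62340372-62340671. The Pfkp window is chr13:6648722-6649021 on the minus strand.
Slc2a1: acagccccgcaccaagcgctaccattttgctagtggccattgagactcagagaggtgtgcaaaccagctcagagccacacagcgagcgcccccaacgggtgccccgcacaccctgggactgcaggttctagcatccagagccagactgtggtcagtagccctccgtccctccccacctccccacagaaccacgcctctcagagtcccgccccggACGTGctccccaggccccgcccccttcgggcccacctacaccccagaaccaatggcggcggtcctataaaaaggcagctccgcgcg
Hk1 start 1: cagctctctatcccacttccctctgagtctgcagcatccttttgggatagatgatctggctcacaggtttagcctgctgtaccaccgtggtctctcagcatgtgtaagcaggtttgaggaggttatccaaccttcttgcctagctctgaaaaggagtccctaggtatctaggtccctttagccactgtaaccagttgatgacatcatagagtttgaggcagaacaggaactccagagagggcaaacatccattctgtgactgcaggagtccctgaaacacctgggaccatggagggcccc
Hk1 start 2: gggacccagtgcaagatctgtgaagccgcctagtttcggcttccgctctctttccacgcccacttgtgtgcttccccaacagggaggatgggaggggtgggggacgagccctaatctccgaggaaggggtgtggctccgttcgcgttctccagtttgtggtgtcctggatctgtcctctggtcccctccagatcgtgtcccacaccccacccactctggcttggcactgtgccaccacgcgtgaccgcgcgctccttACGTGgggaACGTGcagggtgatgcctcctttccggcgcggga
Pfkp: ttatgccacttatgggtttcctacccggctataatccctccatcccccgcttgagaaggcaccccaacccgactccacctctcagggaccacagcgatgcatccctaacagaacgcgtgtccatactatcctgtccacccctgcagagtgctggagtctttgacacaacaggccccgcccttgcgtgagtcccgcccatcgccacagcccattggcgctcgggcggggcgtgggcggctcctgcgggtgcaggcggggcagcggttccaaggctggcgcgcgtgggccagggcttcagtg
Slc2a1 held 1 ACGTG, at position -36 from the start site, together with 2 GC boxes (GGGCGG), 1 CCAAT and 1 TATAAA on either strand. The second Hk1 window held 2 ACGTG and the first held none. Pfkp held none, with 4 GC boxes and 1 CCAAT. Over the 32851 RefSeq promoter windows of this length, 19.6% held an ACGTG, 7.15% a CACGTG, 35.7% a GC box, 37.4% a CCAAT and 13.6% a TATAAA. These matches describe the letters in the windows, and no measurement here shows a factor at them. Which start each gene used cannot be read from counts per gene.

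Slc2a1 encodes GLUT1, the transporter of basal glucose uptake, and lies at chr4:119108711-119137983 on GRCm38. It measured 19.9, 17.9, 19.5 and 16.4 CPM in the 4 control sham hearts and 15.5, 19.3, 15.6 and 20.0 CPM in control TAC. The Trbp-cKO sham hearts gave 21.9, 19.7, 15.05 and 17.0 CPM and the Trbp-cKO TAC hearts 34.6, 31.0, 40.6 and 36.3 CPM. Each Trbp-cKO TAC heart, replicate 4 included, lay above all 12 other hearts, and the other 3 groups overlapped. Slc2a1 rose 2.02-fold between the TAC groups, a log2 fold change of 1.02 ± 0.13 (SE, n = 4 hearts per group, edgeR adjusted p = 0.000441). Within Trbp-cKO hearts it rose 1.94-fold after TAC, by 0.95 ± 0.13 on the log2 scale (edgeR adjusted p = 0.000264). After TAC in control hearts its log2 fold change was -0.07 ± 0.13 (edgeR adjusted p = 0.767), and between the sham groups 0.00 ± 0.13 (edgeR adjusted p = 0.997). The interaction was 1.02 ± 0.18 (edgeR adjusted p = 0.0180), and 0.99 without the 3 low hearts (edgeR adjusted p = 0.0277). It did not pass with the clock score in the fit, where it was 0.78 (edgeR adjusted p = 0.293) and 7 genes of all those tested passed, nor with the replicate number as a block, where it was 1.02 (edgeR adjusted p = 0.0669), nor without control sham replicate 3, where it was 0.99. Per 10000 CPM of summed cardiomyocyte markers, Slc2a1 ran from 5.60 to 11.4 CPM in Trbp-cKO TAC and overlapped control TAC, at 2.97 to 10.4, where replicates 1 and 2 held the highest values, while the sham hearts lay at 2.95 to 3.68 with control and 3.18 to 4.26 with Trbp-cKO.

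Slc2a4 encodes GLUT4, the insulin-responsive transporter of adult heart and muscle, at chr11:69942539-69948188. It measured 298, 304, 325 and 273 CPM in control sham and 94.3, 67.6, 263 and 271 CPM in control TAC. The Trbp-cKO sham hearts held 313, 347, 246 and 332 CPM and the Trbp-cKO TAC hearts 227, 266, 225 and 91.2 CPM. The 3 lowest hearts were those lowest in cardiomyocyte markers, and within control TAC the other 2 hearts lay just below the control sham range. The log2 fold change was -0.78 ± 0.39 after TAC in control hearts (edgeR adjusted p = 0.206), and -0.17 without the 3 hearts (edgeR adjusted p = 0.652). Within Trbp-cKO hearts it was -0.61 ± 0.39 (edgeR adjusted p = 0.384). There the smaller value without the 3 hearts, -0.38, passed the test (edgeR adjusted p = 0.0383), as did the value with the cardiomyocyte marker sum as a term of the fit, -0.45 (edgeR adjusted p = 0.00256). Between the TAC groups Slc2a4 stood at 0.22 ± 0.39 (edgeR adjusted p = 0.787) with all hearts and at -0.17 without the 3 (edgeR adjusted p = 0.564), and between the sham groups at 0.05 ± 0.39 (edgeR adjusted p = 0.982). Per 10000 CPM of summed cardiomyocyte markers, Slc2a4 was 52.3 ± 2.96 CPM for the control sham and 44.2 ± 7.12 for the control TAC group, against 59.5 ± 2.49 for the Trbp-cKO sham and 41.9 ± 9.18 for the Trbp-cKO TAC group (SD, n = 4). On this scale the Trbp-cKO TAC hearts, at 28.6 to 48.1, lay below the Trbp-cKO sham hearts, at 56.5 to 62.1.

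Hk1, the hexokinase that prevails in the fetal heart and in brain, lies at chr10:62268855-62379908. It measured 162, 189, 187 and 164 CPM in control sham and 108, 102, 164 and 191 CPM in control TAC. With Trbp deleted it measured 191, 218, 155 and 197 CPM after sham surgery and 289.7, 297, 347 and 265 CPM after TAC. Every Trbp-cKO TAC heart lay above all 12 other hearts, while the lowest values were those of control TAC replicates 1 and 2. Hk1 rose 2.12-fold between the TAC groups (log2 fold change 1.08 ± 0.19, SE, edgeR adjusted p = 0.00373), and the value was 0.80 without the 3 low hearts (edgeR adjusted p = 0.00568). A fit of the 2 TAC groups alone, which called 0.509% of all genes, did not pass (edgeR adjusted p = 0.0957). After TAC in Trbp-cKO hearts it rose 1.58-fold (0.66 ± 0.18, edgeR adjusted p = 0.0343). That call held in 15 of 28 alternatives, with edgeR adjusted p between 8.49e-06 and 0.187, and leaving out any 1 control sham heart, Trbp-cKO sham replicate 1, 3 or 4 or Trbp-cKO TAC replicate 1, 2 or 3 lost it at a log2 fold change of 0.57 to 0.67. After TAC in control hearts the log2 fold change was -0.31 ± 0.18 (edgeR adjusted p = 0.276), and 0.01 without the 3 hearts. Between the sham groups it was 0.11 ± 0.18 (edgeR adjusted p = 0.870). The interaction was 0.97 ± 0.26 (edgeR adjusted p = 0.0872), and it passed with DESeq2, without control TAC replicate 4 and with the cardiomyocyte marker sum in the fit (0.69, edgeR adjusted p = 0.00465). Per 10000 CPM of marker sum the Trbp-cKO TAC hearts, at 53.7 to 83.1 CPM of Hk1, overlapped control TAC, at 31.2 to 55.0, and lay above both sham groups, at 29.5 to 37.1.

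Hk2, the insulin-regulated hexokinase of adult heart and skeletal muscle, lies at chr6:82725025-82774454. It measured 245, 244, 278 and 253 CPM in control sham and 141, 149.8, 231 and 229 CPM in control TAC. Values were 234, 263, 160.4 and 231 CPM for Trbp-cKO sham and 224, 244, 235 and 122 CPM for Trbp-cKO TAC. All 4 control TAC hearts lay below the control sham hearts, but the remaining groups overlapped each other. Its log2 fold change was -0.44 ± 0.22 after TAC in control hearts (edgeR adjusted p = 0.214) and -0.15 without the 3 low hearts. It was 0.14 ± 0.22 between the TAC groups (edgeR adjusted p = 0.766), -0.11 ± 0.22 after TAC in Trbp-cKO hearts (edgeR adjusted p = 0.844) and -0.20 ± 0.22 between the sham groups (edgeR adjusted p = 0.792). Taken per 10000 CPM of marker sum, Hk2 ran the other way after TAC in control hearts, at 42.6 to 80.5 CPM against 40.6 to 46.8 for control sham, with the 2 highest values of all 16 hearts in control TAC replicates 1 and 2.

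Pfkm, the phosphofructokinase of muscle, lies at chr15:98092589-98132451. It measured 758, 841, 815 and 776 CPM in control sham and 226, 160.3, 723 and 698 CPM in control TAC. The Trbp-cKO sham hearts reached 831, 903, 593 and 829 CPM and the Trbp-cKO TAC hearts 668, 722, 642 and 278 CPM. The lowest 3 values were again those of the hearts low in cardiomyocyte markers. Per 10000 CPM of marker sum, Pfkm was 139 ± 1.19 CPM for control sham, 112 ± 25.1 for control TAC, 151 ± 10.9 for Trbp-cKO sham and 121 ± 23.3 for Trbp-cKO TAC (SD, n = 4), and the same 3 hearts were lowest on that scale, at 86.1 to 95.7. The log2 fold change of Pfkm was -0.82 ± 0.41 after TAC in control hearts (edgeR adjusted p = 0.207), and -0.17 without the 3 low hearts (edgeR adjusted p = 0.680). Within Trbp-cKO hearts it was -0.45 ± 0.40 (edgeR adjusted p = 0.580), and -0.26 with the marker sum in the fit, where it passed (edgeR adjusted p = 0.0338). It was 0.35 ± 0.40 between the TAC groups (edgeR adjusted p = 0.653) and -0.02 ± 0.40 between the sham groups (edgeR adjusted p = 0.993). Of the Pfkm sequence 8.13% of 75-base words also occur in the overlapping gene Gm26513, whose counts came to 0.0558% of those of Pfkm.

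Pfkp, the platelet-type phosphofructokinase, prevails outside muscle and lies at chr13:6579768-6648777. It measured 75.6, 68.2, 77.7 and 66.9 CPM in control sham and 128, 128, 101 and 139 CPM in control TAC. In Trbp-cKO hearts it stood at 102, 117, 97.9 and 95.3 CPM after sham surgery and, after TAC, at 248, 223, 214 and 172 CPM. All control sham hearts lay below, and all Trbp-cKO TAC hearts above, every heart of the other groups, while control TAC and Trbp-cKO sham overlapped. Pfkp rose 1.72-fold after TAC in control hearts (log2 fold change 0.78 ± 0.13, SE, edgeR adjusted p = 0.00455), and with the clock score in the fit the value was 0.67 and missed the threshold (edgeR adjusted p = 0.0516). It rose 1.73-fold between the TAC groups (0.79 ± 0.13, edgeR adjusted p = 0.00267) and 2.08-fold after TAC in Trbp-cKO hearts (1.06 ± 0.13, edgeR adjusted p = 0.000118). The call between the TAC groups was lost in a fit of these 2 groups alone (edgeR adjusted p = 0.0957). Between the sham groups it was 0.51 ± 0.13 (edgeR adjusted p = 0.0594), with all 4 Trbp-cKO hearts above all 4 control hearts, and it passed without the 3 low hearts (edgeR adjusted p = 0.0106). With the clock score in the fit it was 0.32 (edgeR adjusted p = 0.567), where 2 genes of all those tested passed. The interaction was 0.27 ± 0.18 (edgeR adjusted p = 0.500). Per 10000 CPM of marker sum, Pfkp was 12.6 ± 1.15 CPM for control sham, 42.0 ± 23.4 for control TAC, 19.9 ± 1.91 for Trbp-cKO sham and 46.9 ± 7.17 for Trbp-cKO TAC (SD, n = 4). On that scale control TAC replicates 1 and 2, at 54.2 and 68.8, lay above all Trbp-cKO TAC hearts, at 40.3 to 53.8. Reads of Pfkp and its antisense neighbour Pitrm1 could be mixed where their exons overlap, over 5.58% of the Pfkp exon bases, if strand was not used in counting. Pitrm1 carried 27.7% as many counts, with a log2 fold change of 0.14 between the TAC groups (edgeR adjusted p = 0.813).

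Aldoa, which encodes the aldolase of muscle, lies at chr7:126795234-126800751. It measured 2554, 2489.7, 2589.8 and 2559 CPM in control sham and 1656, 1457, 2418 and 2709 CPM in control TAC. The Trbp-cKO hearts held 3018, 2574, 2518 and 2441 CPM after sham surgery and, after TAC, 2768, 2924, 2865 and 2158 CPM. Outside the 3 low hearts all values lay between 2418 and 3018 CPM, and all 4 groups overlapped. Its log2 fold changes were -0.31 ± 0.19 after TAC in control hearts (edgeR adjusted p = 0.295) and 0.38 ± 0.19 between the TAC groups (edgeR adjusted p = 0.258), and 0.0087 and 0.14 without the 3 hearts. Scaled to 10000 CPM of marker sum, Aldoa ranged from 459 to 783 CPM in control TAC and from 528 to 676 in Trbp-cKO TAC, against 414 to 471 with control sham and 434 to 586 with Trbp-cKO sham. Without that scaling, the log2 fold changes of Aldoa after TAC in Trbp-cKO hearts and between the sham groups were 0.02 ± 0.19 (edgeR adjusted p = 0.967) and 0.05 ± 0.19 (edgeR adjusted p = 0.954).

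Pkm, the pyruvate kinase of muscle and of proliferating cells, which arise by alternative splicing that counts per gene do not resolve, lies at chr9:59656368-59679375. It measured 977, 1030.2, 1060.2 and 1016 CPM in control sham and 446, 425, 977 and 1054 CPM in control TAC. Trbp-cKO sham hearts measured 1110.5, 1053, 843 and 1013 CPM and Trbp-cKO TAC hearts 1112, 1071, 1124 and 865 CPM. Control TAC replicates 1 and 2 stood far below all other hearts, and the rest overlapped. The log2 fold change of Pkm was -0.49 ± 0.25 after TAC in control hearts (edgeR adjusted p = 0.219) and 0.52 ± 0.25 between the TAC groups (edgeR adjusted p = 0.245), and -0.0076 and 0.11 without the 3 hearts. On the scale of marker sum Pkm ranged from 185 to 228 CPM per 10000 in control TAC, above all control sham hearts at 171 to 182, and from 193 to 271 in Trbp-cKO TAC, overlapping Trbp-cKO sham at 178 to 216. Without that scaling, the log2 fold change of Pkm after TAC within Trbp-cKO hearts was 0.05 ± 0.25 (edgeR adjusted p = 0.939), and between the sham groups -0.02 ± 0.25 (edgeR adjusted p = 0.985). Of the 75-base words of Pkm, 17.8% also occur in Gm49759, Gm6560 or Gm6992, whose counts came to 1.95%, 0.528% and 0.213% of those of Pkm, so that its counts are uncertain to that extent.

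Ldha encodes the lactate dehydrogenase subunit that favours lactate formation, at chr7:46841475-46855627. It measured 526, 501, 486 and 509 CPM in control sham and 238, 268, 501 and 535 CPM in control TAC. With Trbp deleted it stood at 575, 475, 428 and 485 CPM after sham surgery and, after TAC, at 633, 565, 608 and 416 CPM. Of the 4 Trbp-cKO TAC hearts 3 lay above all control TAC hearts, and replicate 4 lay within the control TAC range. Its log2 fold change was 0.53 ± 0.23 between the TAC groups (edgeR adjusted p = 0.202) and 0.21 without the 3 low hearts. After TAC in control hearts it was -0.39 ± 0.23 (edgeR adjusted p = 0.282), and 0.04 without them. Relative to 10000 CPM of marker sum, Ldha ranged from 95.2 to 144 CPM in control TAC and from 102 to 133 in Trbp-cKO TAC, and both overlapped their sham groups, at 81.8 to 97.0 and 80.1 to 112. Without that scaling, the log2 fold change of Ldha was 0.18 ± 0.23 after TAC in Trbp-cKO hearts (edgeR adjusted p = 0.725) and -0.04 ± 0.23 between the sham groups (edgeR adjusted p = 0.970).

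Ldhb encodes the subunit that prevails in adult heart and favours lactate use, at chr6:142490249-142507957. It measured 1112, 1165, 1158 and 1099.9 CPM in control sham and 525, 361, 973 and 1056 CPM in control TAC. The Trbp-cKO sham hearts had 1145, 1075, 945 and 984 CPM and the Trbp-cKO TAC hearts 689, 932, 716 and 456 CPM. All 4 Trbp-cKO TAC hearts lay below all Trbp-cKO sham hearts, although 932 and 945 CPM are close. The log2 fold change after TAC in Trbp-cKO hearts was -0.57 ± 0.28 (edgeR adjusted p = 0.244). It was -0.42 without the 3 low hearts (edgeR adjusted p = 0.0194) and -0.45 with the marker sum in the fit (edgeR adjusted p = 0.00181), and passed in both. After TAC in control hearts it was -0.64 ± 0.28 (edgeR adjusted p = 0.167), and -0.16 without the 3 hearts (edgeR adjusted p = 0.652). Between the TAC groups it was -0.06 ± 0.28 (edgeR adjusted p = 0.924), and between the sham groups -0.13 ± 0.28 (edgeR adjusted p = 0.909). Per 10000 CPM of cardiomyocyte marker sum, Ldhb was 198 ± 4.97 CPM for control sham, 199 ± 15.99 for control TAC, 201 ± 21.4 for Trbp-cKO sham and 149 ± 13.7 for Trbp-cKO TAC (SD, n = 4). On that scale all Trbp-cKO TAC hearts, at 138 to 169, lay below all hearts of the other groups, at 181 to 222. With the marker sum in the fit the difference between the TAC groups was -0.40 (edgeR adjusted p = 0.0115), and without the 3 low hearts it was -0.39 (edgeR adjusted p = 0.107). Of its 75-base words 12.6% also occur in Gm5514, which had 19958 counts over all hearts beside 867351 of Ldhb.

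**Figure D3:**
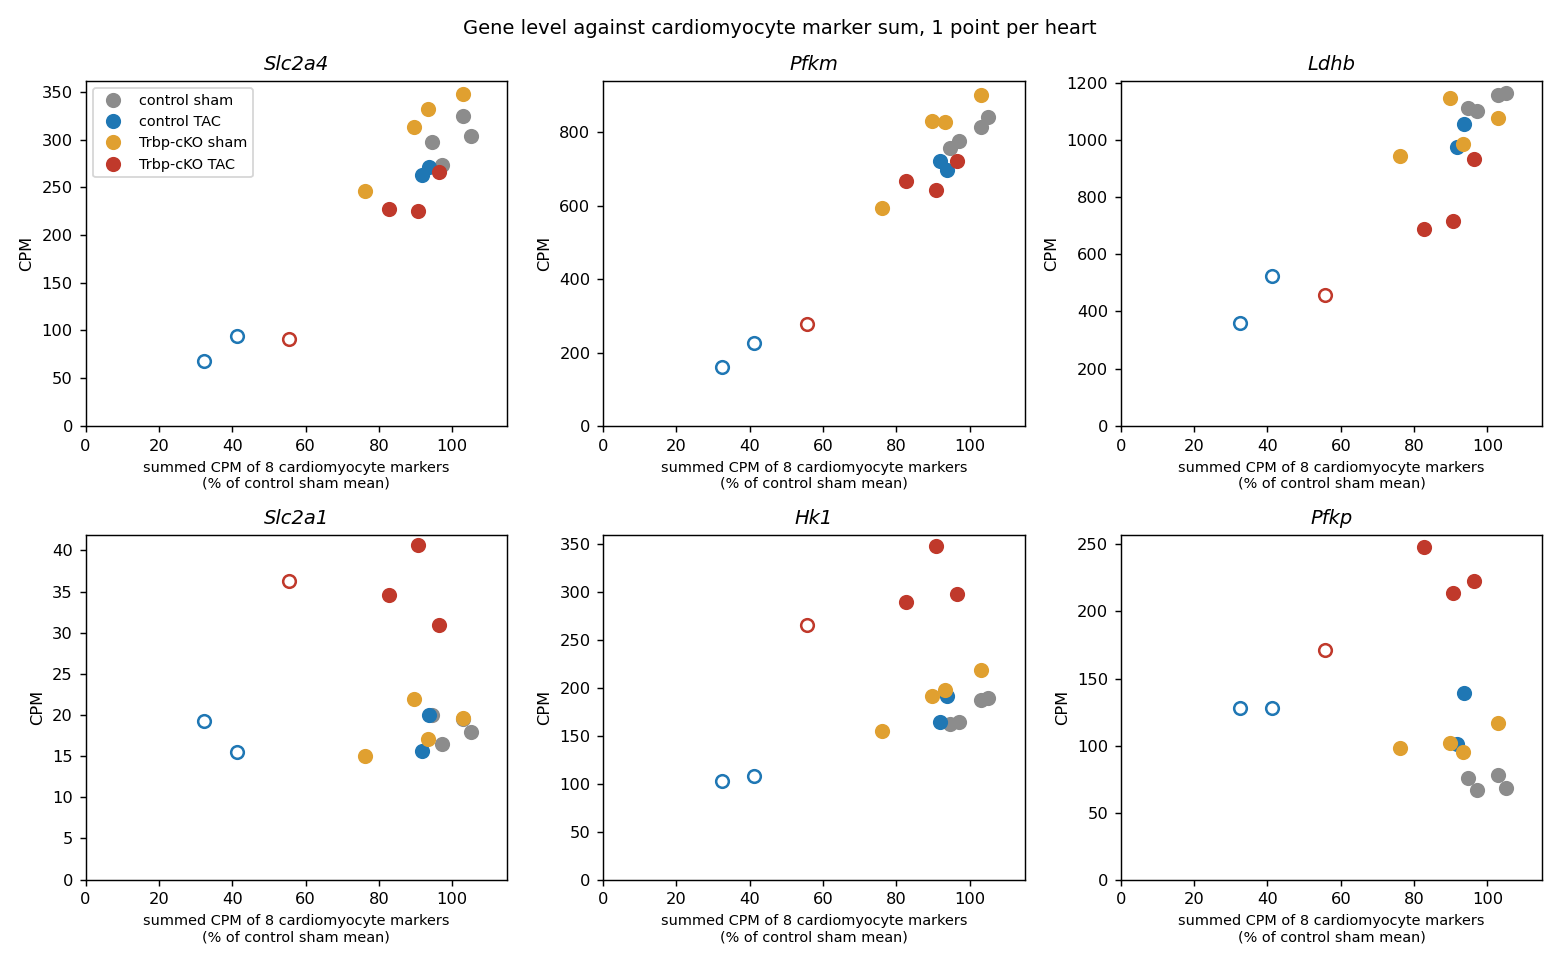
CPM of Slc2a4, Pfkm, Ldhb, Slc2a1, Hk1 and Pfkp against the summed CPM of 8 cardiomyocyte markers, as a percent of the control sham mean, with 1 point per heart, groups by colour and the 3 low hearts open. Slc2a4, Pfkm and Ldhb are lowest in the open circles at 32.4% to 55.6%, whereas the Trbp-cKO TAC hearts lie above all others for Slc2a1, Hk1 and Pfkp in CPM.

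Counting groups that do not overlap, Pfkp was apart upwards after TAC in control hearts, beside 8.64% of all genes tested, and Slc2a4, Hk2, Pfkm and Ldhb were apart downwards, 4 of the 10 beside 8.78%. Pfkp was the 1 gene of the 10 apart upwards between the sham groups, beside 7.74% of all genes. Slc2a1, Hk1 and Pfkp were apart upwards between the TAC groups, 3 of the 10 beside 6.12%. The same 3 were apart upwards after TAC in Trbp-cKO hearts, beside 9.05%, and Ldhb downwards, beside 8.14%, a share near that of 1 gene in 10.

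Some markers listed for other cell types or tissues moved with the same groups. Among the other types, 3 of 7 fibroblast markers and 5 of 6 activated fibroblast markers rose between the TAC groups, beside 3.88% of all genes that rose and 5.53% that changed. The sum of the activated fibroblast markers ranged from 1249.5 to 2819 CPM in Trbp-cKO TAC and from 359 to 905 CPM in control TAC. The fibroblast markers summed to 1637 to 2589.7 CPM in Trbp-cKO TAC, 1043 to 1722 in control TAC, 1066 to 1295 for Trbp-cKO sham and 786 to 931 for control sham. Endothelial markers, at 631 to 1083 CPM in Trbp-cKO TAC and 728 to 1530.1 CPM in control TAC, had no call by edgeR in that comparison, and neither had the macrophage and leukocyte markers, at 175 to 234 and 194 to 247 CPM, nor the lymphocyte and erythroid markers. Atrial markers summed to 10257 to 15676 CPM in Trbp-cKO TAC and to 1616 to 3860 CPM in control TAC, and 2 of the 3 tested rose, together with 1 of 4 smooth muscle, 2 of 4 skeletal muscle and 1 adipocyte marker. In control hearts after TAC 4 of 7 fibroblast, 4 of 6 activated fibroblast, 1 of 6 endothelial and 1 of 3 atrial markers rose, beside 4.09% of all genes. There 1 of 6 activated fibroblast, 1 of 4 smooth muscle and 1 of 4 skeletal muscle markers fell, and 6.29% of all genes changed in either direction. After TAC in Trbp-cKO hearts 3 of 7 fibroblast, 5 of 6 activated fibroblast, 2 of 3 atrial and 2 of 4 smooth muscle markers rose, beside 6.02% of all genes. There 1 of 4 smooth muscle, 1 of 4 skeletal muscle and 1 of 8 cardiomyocyte markers fell, and 9.94% of all genes changed in either direction. Between the sham groups 1 of 7 fibroblast, 1 of 6 activated fibroblast and 1 of 4 skeletal muscle markers and the 1 adipocyte marker tested rose and none fell. Of all genes 1.02% rose there and 1.68% changed. The atrial sum lay between 1009 and 1516 CPM in Trbp-cKO sham and between 542 and 1018 CPM in control sham. All fibroblast and activated fibroblast markers were detected, and their part in the rise of Slc2a1, Hk1 and Pfkp was not tested.

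The balance within each pair of genes was taken as the log2 ratio of CPM per kilobase in each heart, as a description with no test. The ratio of Hk2 to Hk1 was 1.05 ± 0.12 for control sham, 0.93 ± 0.13 for control TAC, 0.73 ± 0.11 for Trbp-cKO sham and -0.07 ± 0.37 for Trbp-cKO TAC (SD, n = 4). In the single hearts of the last group it was 0.14, 0.23, -0.05 and -0.60, below the 0.57 of the lowest heart in any other group. With the longest transcript in place of all exons as the length of each gene, these means were 0.17, 0.05, -0.16 and -0.95, the same differences from another level, so which hexokinase is the more abundant depends on the length used. Slc2a1 to Slc2a4 was -4.04 ± 0.08 for control sham, -3.07 ± 1.05 for control TAC, -4.09 ± 0.19 for Trbp-cKO sham and -2.41 ± 0.76 for Trbp-cKO TAC. Trbp-cKO TAC did not overlap Trbp-cKO sham, and within control TAC the ratio was -2.62 and -1.82 in replicates 1 and 2 but -4.08 and -3.78 in replicates 3 and 4. Without the 3 low hearts the difference between Trbp-cKO TAC and control TAC was 1.16, and with them 0.66.

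Pfkp to Pfkm was -5.47 ± 0.14 for control sham, -3.58 ± 1.20 for control TAC, -4.93 ± 0.23 for Trbp-cKO sham and -3.36 ± 0.45 for Trbp-cKO TAC (SD, n = 4). The difference between control TAC and control sham was 1.89 with all hearts and 0.88 without control TAC replicates 1 and 2, and that between Trbp-cKO TAC and control TAC was 0.23 with all hearts and 1.01 without the 3 low hearts. It turned to -0.20 without control TAC replicate 3 and to -0.02 without replicate 4. Ldha to Ldhb was -2.24 ± 0.08 for control sham, -1.95 ± 0.31 for control TAC, -2.16 ± 0.09 for Trbp-cKO sham and -1.38 ± 0.28 for Trbp-cKO TAC. All Trbp-cKO TAC hearts, from -1.80 to -1.20, lay above all Trbp-cKO sham hearts, from -2.26 to -2.07, while control TAC replicate 2 at -1.51 fell within their range.

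**Figure D4:**
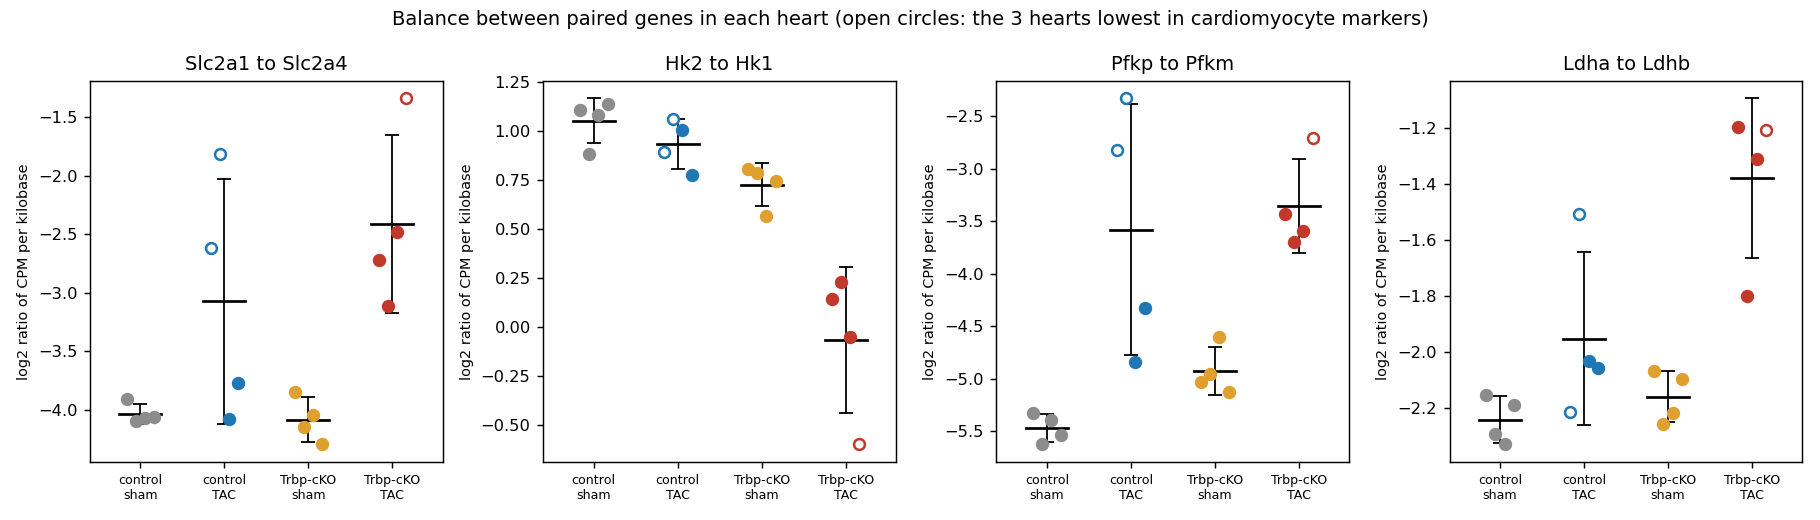
log2 ratio of CPM per kilobase of exons for the pairs Slc2a1 to Slc2a4, Hk2 to Hk1, Pfkp to Pfkm and Ldha to Ldhb in every heart, by group, with the mean and SD as line and bars and the 3 low hearts as open circles. Hk2 to Hk1 is lowest in all 4 Trbp-cKO TAC hearts, and the spread within control TAC is widest where Slc2a4 or Pfkm is the partner.

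The rest of the pathway was followed in 46 further genes for glucose transport, the other glycolytic enzymes, PFKFB enzymes, lactate and pyruvate transport and pyruvate dehydrogenase, of which 44 were tested and Hkdc1 and Ldhc were too low. Of these, 4 rose between the TAC groups and none fell, 9.09% of the list, beside 5.53% of all genes. Gpi1, phosphoglucose isomerase, ranged from 636 to 790.0 CPM in Trbp-cKO TAC and from 336 to 512 CPM in control TAC (log2 fold change 0.79 ± 0.15, SE, edgeR adjusted p = 0.00599). Pgam1, phosphoglycerate mutase, ranged from 94.9 to 174 CPM against 48.3 to 78.5 CPM (1.25 ± 0.19, edgeR adjusted p = 0.0016). Both were free of overlap, unlike the other risen genes. Pfkl, the liver-type phosphofructokinase, stood at 0.85 ± 0.18 (edgeR adjusted p = 0.0145) and Slc16a3, which encodes the lactate exporter MCT4, at 1.13 ± 0.25 (edgeR adjusted p = 0.0163). The list gave between 0 calls (fit of the 2 groups alone, with 0.509% of all genes called) and 11 calls (cardiomyocyte marker sum in the fit, with 13.8%) over the alternatives.

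Of the 44, 5 rose after TAC in Trbp-cKO hearts and 2 fell, 15.9% beside 9.94% of all genes. Slc16a3 ranged from 6.39 to 15.4 CPM in Trbp-cKO TAC and from 2.24 to 3.59 CPM in Trbp-cKO sham, a log2 fold change of 1.85 ± 0.25 (edgeR adjusted p = 0.000261). Its interaction, 1.51 ± 0.35, lay just short of the threshold (edgeR adjusted p = 0.0504). Pdk3, a kinase that inactivates pyruvate dehydrogenase, rose by 0.90 ± 0.13 (edgeR adjusted p = 0.000511), and Pdp2, a phosphatase that activates it, fell by 1.43 ± 0.29 on the log2 scale (edgeR adjusted p = 0.0053). Pfkfb1, which makes and breaks down fructose 2,6-bisphosphate, fell by 2.80 ± 0.44 on the log2 scale (edgeR adjusted p = 0.000755). It ranged from 14.8 to 22.1 CPM in Trbp-cKO sham and from 1.72 to 3.99 CPM in Trbp-cKO TAC. Control sham hearts lay at 7.08 to 10.8 CPM, and control TAC hearts, at 0.87 to 7.07 CPM, overlapped Trbp-cKO TAC. After TAC in control hearts its log2 fold change was -1.23 ± 0.42 and was not called (edgeR adjusted p = 0.0848). The enolases Eno1 (0.39 ± 0.10, edgeR adjusted p = 0.0201) and Eno2 (0.86 ± 0.22, edgeR adjusted p = 0.0204) and the transporter Slc2a10 (0.83 ± 0.25, edgeR adjusted p = 0.0477) rose. Without the 3 low hearts 15 genes of the list were called, beside 17.1% of all genes, and with 1 heart left out between 4 and 8, beside 6.48% to 11.3% of all genes.

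Pdk4, a further pyruvate dehydrogenase kinase and a target of fatty acid signalling, was the single call among the 44 after TAC in control hearts (2.27%, beside 6.29% of all genes). It ranged from 61.5 to 137 CPM against 204 to 402 CPM, a fall by 1.44 ± 0.33 on the log2 scale (edgeR adjusted p = 0.0219), and no gene of the list was called without control TAC replicate 1, control TAC replicate 2 or control sham replicate 4, whereas 7 were without control TAC replicate 4, a setting in which 14.1% of all genes were called. For the sham groups edgeR's quasi-likelihood test called 0 of the 44, beside 1.68% of all genes, with 4 at an unadjusted p under 0.05 (13.7% of all genes), 0 calls by DESeq2 (4.62%) and 6 by edgeR's exact test (8.21%). For the interaction it called 0, beside 1.05% of all genes, with 10 at an unadjusted p under 0.05 (15.4%) and 4 calls by DESeq2 (4.67%).

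**Figure D5:**
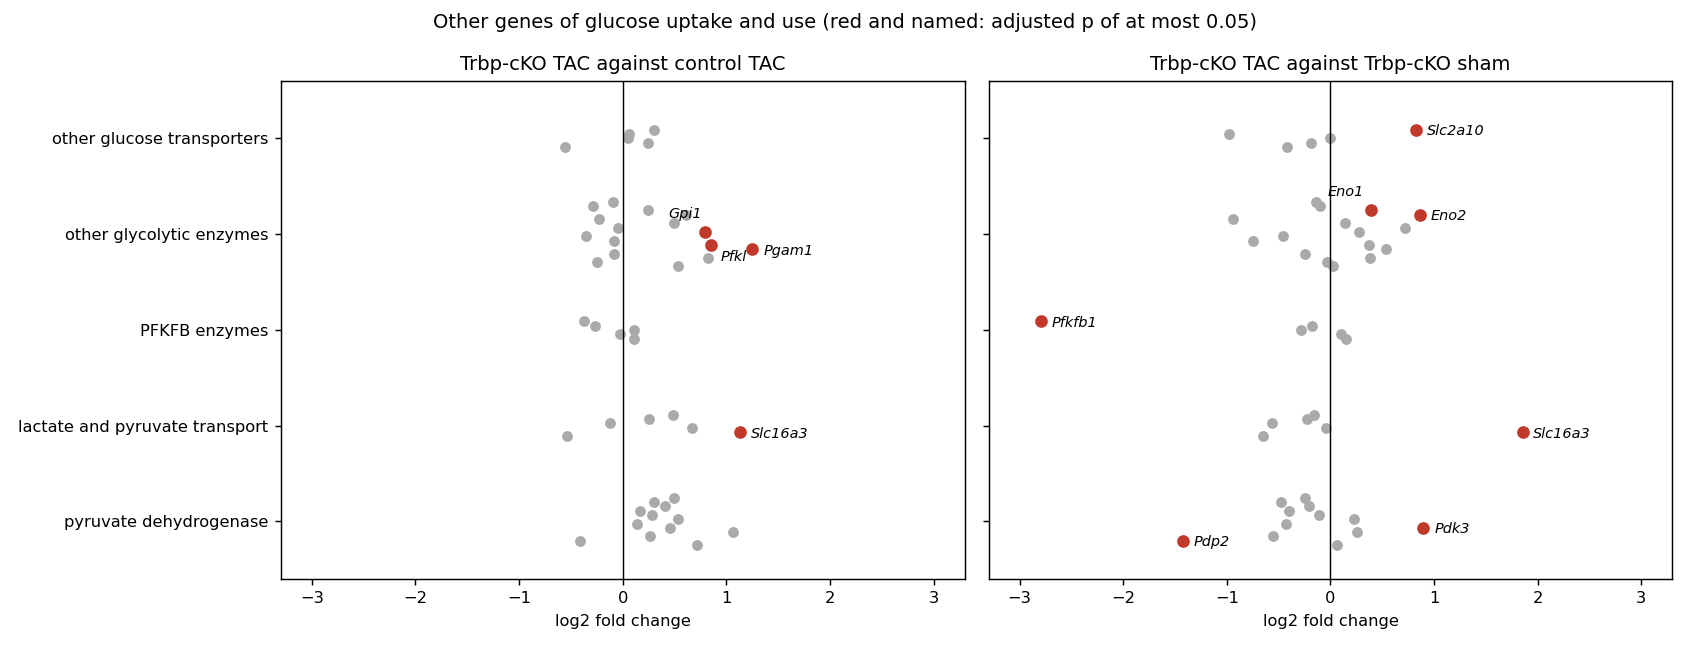
log2 fold change of the 44 further genes of glucose uptake and use between the TAC groups and after TAC in Trbp-cKO hearts, 1 point per gene, by group of genes, with those at an adjusted p of at most 0.05 in red and named. Slc16a3 is red on both sides, and Pfkfb1 at -2.80 lies farthest from 0.

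Among 16 regulators of glucose uptake and its transcription, Hif1a, the oxygen-regulated subunit of hypoxia-inducible factor 1, rose in Trbp-cKO TAC, from 73.8 to 103 CPM against 51.5 to 66.4 CPM in control TAC (log2 fold change 0.61 ± 0.13, SE, edgeR adjusted p = 0.0166). Relative to Trbp-cKO sham hearts, at 45.2 to 64.6 CPM, it rose by 0.70 ± 0.13 (edgeR adjusted p = 0.00323). It was the only call of the 16 in the former comparison, 6.25% beside 5.53% of all genes, where edgeR's exact test called 0 of the 16 and 2.69% of all genes. In the latter it was 1 of 2 calls, 12.5% beside 9.94% of all genes, where Myc also rose (1.11 ± 0.30, edgeR adjusted p = 0.0271). Myc, a transcription factor that drives growth, fell by 1.23 ± 0.30 on the log2 scale between the sham groups (edgeR adjusted p = 0.0495). It was the single call of the 16 there, 6.25% beside 1.68% of all genes. Mef2a, a muscle transcription factor, fell by 0.48 ± 0.12 on that scale after TAC in control hearts (edgeR adjusted p = 0.0341). There Mef2a was the single call of the 16, 6.25%, a share near the 6.29% of all genes. However, 10 of the 16 had an unadjusted p under 0.05 there, beside 26.6% of all genes. DESeq2 called 4 and edgeR's exact test 3, beside 12.5% and 7.13% of all genes. For the interaction edgeR's quasi-likelihood test called 0 of the 16, beside 1.05% of all genes. There 7 had an unadjusted p under 0.05 (15.4% of all genes) and DESeq2 called 4 (4.67%). Of 10 hypoxia targets outside glycolysis, Bnip3, a mitophagy receptor, rose between the TAC groups (0.87 ± 0.18, edgeR adjusted p = 0.0128), and Ankrd37 rose after TAC in control hearts (1.20 ± 0.34, edgeR adjusted p = 0.0457), each the single call of the 10 in its comparison, beside 5.53% and 6.29% of all genes. After TAC in Trbp-cKO hearts edgeR's quasi-likelihood test called 0 of these 10, beside 9.94% of all genes. There DESeq2 called 3 and edgeR's exact test 4, beside 13.9% and 11.9% of all genes. Of 4 splicing factors that choose between the Pkm forms (Ptbp1, Hnrnpa1, Hnrnpa2b1 and Srsf3), edgeR's quasi-likelihood test called 0 in any comparison, beside 1.05% to 9.94% of all genes, where 2 after TAC in control hearts and 1 after TAC in Trbp-cKO hearts had an unadjusted p under 0.05, beside 26.6% and 23.0% of all genes, and DESeq2 called 1 in each of those, beside 12.5% and 13.9%.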

How the data were processed

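Ventricular RNA of 16 mice, 4 in each group, was sequenced. Per the submitters' processing notes and the study's methods, the authors used cutadapt 2.3 for trimming and HISAT2 2.1.0 for alignment to GRCm38, and the deposited counts per gene come from StringTie 1.3.4, whose prepDE script estimates counts from coverage. Whether strand was used in counting is not given in the sources used here. The deposited counts were tested with edgeR 4.0.16 (R 4.3.3, limma 3.58.1) by the robust quasi-likelihood test, with all 16 hearts in 1 fit, TMM scaling, filterByExpr and Benjamini-Hochberg adjustment over 19955 genes. An exact permutation test of 4 hearts against 4 cannot go below p = 0.0286. Symbols, positions and exon lengths were taken from GENCODE on GRCm38, which placed 55480 of the 55573 genes. CPM are on TMM library sizes, and total counts ran from 45166994 to 68274222. DESeq2 1.42.0, edgeR's exact test, other scalings and filters, added terms and left-out hearts were alternatives. Replicate numbers shared by the groups were not taken to pair the hearts and entered 1 alternative, as a block. The members and gene lists were chosen with earlier results of these data known. Named genes were the 10 members, Tarbp2 and, of the wider lists, genes with an adjusted p of at most 0.05, up to 12 per comparison. Tamoxifen-treated mice without Cre were not analysed here. The p-values measure the spread between individual hearts, and those of the main test pool this spread over all groups.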

Additional observations from a re-analysis of the deposited data

Results flagged for a closer look

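Trbp-cKO TAC replicate 4 stood far below the other 3 hearts of its group for 3 of the 10 genes. Its gap to the nearest heart was 0.845 of the group's whole range on the log2 scale for Slc2a4, 0.871 for Hk2 and 0.877 for Pfkm, above the critical value of Dixon's test for 4 samples. This test was applied to 40 sets of 4 hearts, and chance passes it in about 1 in 20. The same heart held 55.6% of the control sham mean of summed cardiomyocyte markers, and it did not lie below its group for Slc2a1. The part of the marker level in these values was not tested.

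The response of Slc2a1 to TAC differed between Trbp-cKO and control hearts by a log2 fold change of 1.02 in the interaction test (edgeR adjusted p = 0.0180), with all 4 Trbp-cKO TAC hearts above the other 12 hearts. The call was lost with the clock score in the fit (0.78, edgeR adjusted p = 0.293, where 7 genes of all those tested passed), with the replicate number as a block (1.02, edgeR adjusted p = 0.0669) and without control sham replicate 3.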

How the results depend on the processing

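Of the log2 fold changes of the 10 genes, 517 kept direction and side of the threshold over the settings other than single left-out hearts, 40 reversed, 15 passed only there and 8 were lost. With single hearts left out the counts were 760, 26, 3 and 11. In no setting run did Slc2a1, Hk1 or Pfkp reverse in a comparison where it was called. Causes were not tested. Library size scaling moved the median of all genes to 0.11 between the sham groups and 0.13 between the TAC groups, so its values carry that shift. The exact test cannot be run for the interaction.

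The count of the 10 genes called after TAC in control hearts went from 1 to 0 with the clock score in the fit and to 0 with a log2 fold change of at least 0.8 required. For the sham groups it went from 0 to 1, always Pfkp, with library size scaling, DESeq2, the exact test, a fit of the 2 groups alone, a filter of 1 CPM in 4 hearts, the cardiomyocyte marker sum in the fit, the 3 low hearts left out or an adjusted p of at most 0.1, and lay between 0 and 1 with single hearts left out (1 without control TAC replicate 3 or Trbp-cKO TAC replicate 4). For the TAC groups it went from 3 to 1, Slc2a1, in a fit of the 2 groups alone, and to 4 with the marker sum, where Ldhb fell by 0.40 on the log2 scale (edgeR adjusted p = 0.0115). For TAC in Trbp-cKO hearts it went from 3 to 6 with the marker sum, where Slc2a4, Pfkm and Ldhb fell, and to 5 without the 3 low hearts. It went to 2, with Hk1 lost, with no filter, the clock score, the replicate block or a log2 fold change of at least 0.8 required, and with 10 of the 16 single hearts left out (any control sham heart, Trbp-cKO sham replicate 1, 3 or 4, Trbp-cKO TAC replicate 1, 2 or 3). For the interaction it went from 1 to 2 with DESeq2, the marker sum or an adjusted p of at most 0.1, to 0 with the clock score, and lay between 0 (without control sham replicate 3) and 2 (without control TAC replicate 4).

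Of the 44 further genes, the 1 call after TAC in control hearts became 4 with DESeq2, 2 with the exact test and 0 with the 2 groups alone, the marker sum or the 3 low hearts left out, and 0 to 7 with single hearts left out (0 without control sham replicate 4 or control TAC replicate 1 or 2, 4 without control TAC replicate 3, 7 without control TAC replicate 4, and 2 without Trbp-cKO TAC replicate 2 or 4). For the sham groups the 0 calls became 6 with the exact test, 4 with the 2 groups alone, 6 with the marker sum, 5 without the 3 hearts and 0 to 1 with single hearts left out (1 without control TAC replicate 2). For the TAC groups the 4 calls became 7 with library size scaling, 8 with DESeq2, 0 with the 2 groups alone, 11 with the marker sum, 7 without the 3 hearts and 2 to 7 with single hearts left out (2 without control TAC replicate 1, 7 without Trbp-cKO TAC replicate 2). For TAC in Trbp-cKO hearts the 7 calls became 4 with the clock score, 18 with the marker sum, 15 without the 3 hearts and 4 to 8 with single hearts left out (4 without Trbp-cKO sham replicate 2 or 4). For the interaction the 0 calls became 4 with DESeq2, 1 with the filter of 1 CPM, 7 with the marker sum, 4 without the 3 hearts and 0 to 2 with single hearts left out (2 without control TAC replicate 2, 1 without Trbp-cKO TAC replicate 2).

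Calls over all genes moved with these settings too. Their share after TAC in control hearts was 6.29% as reported, 12.5% with DESeq2, 7.13% with the exact test, 2.20% with the 2 groups alone, 3.17% with the clock score, 2.72% with the marker sum, 2.58% without the 3 hearts and 1.87% to 14.1% with single hearts left out. For the sham groups it was 1.68% as reported, 2.77% with library size scaling, 4.62% with DESeq2, 8.21% with the exact test, 6.25% with the 2 groups alone, 2.34% with the filter of 1 CPM, 8.08% with the marker sum, 8.21% without the 3 hearts, 3.17% at an adjusted p of at most 0.1 and 0.469% to 2.57% with single hearts left out. For the TAC groups it was 5.53% as reported, 10.2% with library size scaling, 10.7% with DESeq2, 0.509% with the 2 groups alone, 13.8% with the marker sum, 5.98% without the 3 hearts and 2.3% to 7.84% with single hearts left out. For TAC in Trbp-cKO hearts it was 9.94% as reported, 3.95% with no filter, 3.31% with the clock score, 22.0% with the marker sum, 17.1% without the 3 hearts and 6.48% to 11.3% with single hearts left out. For the interaction it was 1.05% as reported, 4.67% with DESeq2, 1.82% with the filter of 1 CPM, 0.0351% with the clock score, 5.60% with the marker sum, 2.13% without the 3 hearts, 2.54% at an adjusted p of at most 0.1 and 0.301% to 2.42% with single hearts left out.

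Correlations of the deviations from the group mean ran from -0.427 to 0.210 between hearts with the same number. Hearts with different numbers were not set beside them, so whether the numbers pair the hearts was not tested. With the replicate number as a block, the count of the 10 genes for the interaction went from 1 to 0, that of the further genes from 1 to 0 after TAC in control hearts and from 4 to 2 between the TAC groups, Hk1 after TAC in Trbp-cKO hearts stood at 0.65 and was not called (edgeR adjusted p = 0.0760), and Pfkm between the sham groups stood at 0.00051. The block called 2.56% of all genes after TAC in control hearts, 0.777% between the sham groups, 2.33% between the TAC groups, 6.67% after TAC in Trbp-cKO hearts and 0.276% for the interaction.

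Reversed values, all of genes not called in the comparison, were as follows. After TAC in control hearts they were 0.053 for Slc2a1 with the clock score. With the marker sum they were 0.046 for Slc2a4, 0.066 for Hk1, 0.023 for Hk2, 0.027 for Pfkm, 0.050 for Aldoa, 0.015 for Pkm and 0.063 for Ldha. Without the 3 hearts they were 0.015 for Hk1, 0.0087 for Aldoa and 0.036 for Ldha. In the sham groups library size scaling gave 0.090 for Slc2a1, 0.079 for Pfkm, 0.072 for Pkm and 0.049 for Ldha, no filter gave 0.00077 for Slc2a1, and the clock score gave 0.19 for Slc2a1, -0.70 for Slc2a4 and -0.28 for Aldoa. The marker sum gave 0.19 for Pfkm, 0.095 for Pkm, 0.059 for Ldha and 0.014 for Ldhb. Single left-out hearts gave -0.10 to 0.083 for Slc2a1, -0.012 to 0.14 for Slc2a4, -0.087 to 0.10 for Pfkm, -0.031 to 0.085 for Aldoa, -0.083 to 0.053 for Pkm and -0.14 to 0.017 for Ldha. In the TAC groups the marker sum gave -0.25 for Slc2a4, -0.16 for Hk2 and -0.10 for Pfkm, and the 3 hearts left out gave -0.17 for Slc2a4 and -0.078 for Pfkm. Ldhb was 0.055 with library size scaling and 0.081 with the clock score. Single left-out hearts gave -0.059 to 0.52 for Slc2a4 and -0.29 to 0.17 for Ldhb. Within Trbp-cKO hearts Hk2 was 0.12 with the clock score and 0.072 without the 3 hearts. Single left-out hearts gave -0.24 to 0.076 for Hk2, -0.023 to 0.11 for Aldoa and -0.023 to 0.13 for Pkm. For the interaction the marker sum gave -0.50 for Slc2a4, -0.040 for Hk2, -0.28 for Pfkm and -0.41 for Ldhb, and the 3 hearts left out gave -0.21 for Slc2a4, -0.057 for Pfkm and -0.26 for Ldhb. Single left-out hearts gave -0.10 to 0.47 for Slc2a4 and -0.16 to 0.30 for Ldhb.

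Of the differences between pairs of genes, Slc2a1 to Slc2a4 after TAC in control hearts went from 0.96 to 0.11 and Pfkp to Pfkm from 1.89 to 0.88 without the low hearts. With single hearts left out, Slc2a1 to Slc2a4 between the sham groups lay between -0.13 and 0.021 (above 0 without Trbp-cKO sham replicate 4), and Pfkp to Pfkm between the TAC groups between -0.20 and 0.64.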
